A study of Mus musculus with 4 samples.

Results

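Chromatin loops that join the end of a protein-coding gene to the end of another were described in mouse uterus. A gene-to-gene loop was a loop with 5 kb anchors, longer than 60 kb and at most 2 Mb, with the start or end of a RefSeq protein-coding gene in one anchor and of a different gene in the other. The 4 deposited loop lists held 59353 loops, and 2470 of them met this rule. They joined 2760 different pairs of genes and touched 3327 genes, 15.4% of the 21631 protein-coding genes of chromosomes 1 to 19 and X.

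The lists came from Hi-C, a method that ligates DNA ends lying close together in the nucleus and sequences the junctions, made here with the Arima kit on frozen whole uterus of C57BL/6J females. There was 1 library of wild-type mice given 1 mg progesterone in 100 ul sesame oil under the skin. There was 1 library of Ex3aERKO mice, which lack ERa (estrogen receptor alpha, the product of Esr1), given saline, and there were 2 libraries of wild-type mice given 100 ul saline into the peritoneum, numbered replicates 2 and 3. All mice were over 10 weeks old, had been ovariectomised, had rested for 10 to 14 days and were killed 1 h after the injection, so every group lacked ovarian hormones before treatment. Progesterone and saline differed also in carrier and route. The number of animals behind a library was not given, nor whether they were pooled. The estradiol-treated uterus named in the study's design was not analysed here.

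A loop is seen in Hi-C where 2 distant stretches of DNA meet more often than their surroundings. Many loops form when the cohesin ring extrudes DNA until it stops at the factor CTCF. Others bring active promoters and enhancers together, and promoters of broadly used genes often share such contacts. ERa and the progesterone receptor are ligand-activated transcription factors that bind mostly at distal sites, and in the uterus they drive growth of the lining and its preparation for the embryo. The lists held loop positions only, with no contact counts and no expression, so neither the tissue's cell types nor the deletion in Esr1 could be checked in them.

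The promoters at both ends of 4 pairs are printed to show the kinds of sequence that these loops joined. Pds5a, a regulator of cohesin, and Ube2k, a ubiquitin-conjugating enzyme, were joined over 160 kb in all 4 libraries, with anchors at chr5:65535001-65540000 and chr5:65695001-65700000. Fosl2, an AP-1 transcription factor of the early estrogen response, and Babam2, a component of a deubiquitinating complex, were joined over 440 kb in 3 libraries. Jun, another AP-1 factor, and Fggy, a carbohydrate kinase, were joined over 505 kb in the same 3. Gimap8 and Gimap3, GTPases of lymphocytes, were joined over 125 kb in all 4 libraries and are the contrast, with promoters poor in CpG. The sequences are RefSeq's for GRCm38.p6, run 5′ to 3′ on the gene's own strand, and cover 250 bases before and 50 after the start. Capitals mark matches, on either strand, to the GC box GGGCGG, the NRF1 motif GCGCATGC or the ETS motif CCGGAAG.
Ube2k: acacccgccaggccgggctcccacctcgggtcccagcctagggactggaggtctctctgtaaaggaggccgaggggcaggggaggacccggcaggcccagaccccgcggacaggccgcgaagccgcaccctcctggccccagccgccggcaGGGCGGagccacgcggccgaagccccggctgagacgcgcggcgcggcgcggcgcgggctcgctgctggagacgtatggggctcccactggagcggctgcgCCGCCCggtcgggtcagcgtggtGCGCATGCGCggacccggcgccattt
Pds5a: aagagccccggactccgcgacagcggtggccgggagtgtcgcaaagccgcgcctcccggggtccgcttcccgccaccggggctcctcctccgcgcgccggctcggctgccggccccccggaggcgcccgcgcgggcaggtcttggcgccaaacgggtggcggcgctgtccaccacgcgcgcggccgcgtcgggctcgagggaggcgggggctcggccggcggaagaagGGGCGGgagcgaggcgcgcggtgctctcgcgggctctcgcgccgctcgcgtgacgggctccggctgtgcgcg
Babam2: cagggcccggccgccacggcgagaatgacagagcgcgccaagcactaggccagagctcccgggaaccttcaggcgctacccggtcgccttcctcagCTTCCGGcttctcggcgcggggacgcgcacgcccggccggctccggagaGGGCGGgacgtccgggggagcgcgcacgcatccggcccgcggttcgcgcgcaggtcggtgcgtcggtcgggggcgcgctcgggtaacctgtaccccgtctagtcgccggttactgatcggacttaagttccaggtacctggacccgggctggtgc
Fosl2: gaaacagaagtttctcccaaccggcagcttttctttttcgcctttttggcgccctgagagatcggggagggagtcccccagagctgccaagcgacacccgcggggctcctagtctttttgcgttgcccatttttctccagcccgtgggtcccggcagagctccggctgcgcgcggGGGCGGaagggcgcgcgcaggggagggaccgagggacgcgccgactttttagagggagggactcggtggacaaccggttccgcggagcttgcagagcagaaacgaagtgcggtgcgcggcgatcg
Jun: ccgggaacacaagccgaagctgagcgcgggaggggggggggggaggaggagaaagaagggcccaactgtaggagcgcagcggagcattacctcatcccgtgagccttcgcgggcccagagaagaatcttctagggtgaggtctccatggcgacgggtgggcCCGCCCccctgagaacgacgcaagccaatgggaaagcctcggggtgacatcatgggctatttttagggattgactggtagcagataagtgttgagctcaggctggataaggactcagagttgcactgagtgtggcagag
Fggy: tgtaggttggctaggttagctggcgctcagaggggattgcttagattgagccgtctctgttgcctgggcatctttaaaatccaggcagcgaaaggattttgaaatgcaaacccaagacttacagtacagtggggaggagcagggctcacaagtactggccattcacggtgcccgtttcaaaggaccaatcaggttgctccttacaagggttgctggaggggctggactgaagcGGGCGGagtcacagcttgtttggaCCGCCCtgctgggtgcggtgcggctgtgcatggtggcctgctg
Gimap8: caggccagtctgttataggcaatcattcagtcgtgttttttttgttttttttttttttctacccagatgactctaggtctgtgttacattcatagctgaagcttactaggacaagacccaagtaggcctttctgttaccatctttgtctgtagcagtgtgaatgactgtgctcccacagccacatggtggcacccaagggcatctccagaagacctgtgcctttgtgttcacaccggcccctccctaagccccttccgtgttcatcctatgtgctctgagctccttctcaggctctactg
Gimap3: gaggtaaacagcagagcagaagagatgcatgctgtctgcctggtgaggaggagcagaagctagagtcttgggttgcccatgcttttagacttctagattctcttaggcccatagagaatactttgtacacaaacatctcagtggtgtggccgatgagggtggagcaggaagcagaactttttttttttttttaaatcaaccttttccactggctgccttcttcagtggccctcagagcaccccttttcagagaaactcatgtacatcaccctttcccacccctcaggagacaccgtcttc

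The Ube2k window is chr5:65536995-65537294 on the plus strand and the Pds5a window chr5:65698187-65698486 on the minus strand. Babam2 is read from chr5:31697800-31698099 and Fosl2 from chr5:32136222-32136521, both on the plus strand. Jun is read from chr4:95052173-95052472 on the minus strand and Fggy from chr4:95557257-95557556 on the plus strand. Gimap8 is read from chr6:48646984-48647283 on the plus strand and Gimap3 from chr6:48770802-48771101 on the minus strand. The CpG ratio (observed CpG over that expected from the C and G content) was 0.885 in the Ube2k window and 1.14 in the Pds5a window. It was 0.178 in the Gimap8 window and 0.116 in the Gimap3 window, where none of the 6 motifs searched was found.

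Gene-to-gene loops made up a small part of each list, and that part was largest in the knockout. There were 301 in the progesterone library, 1456 in the knockout library, 571 in vehicle replicate 2 and 142 in vehicle replicate 3. These were 6.81% of the 4423 loops of 5 kb anchors and this length in the progesterone library (95% Wilson interval 6.10 to 7.59). The share was 14.5% of 10015 in the knockout (13.9 to 15.2), 7.89% of 7234 in vehicle replicate 2 (7.29 to 8.54) and 4.61% of 3077 in vehicle replicate 3 (3.93 to 5.41). The intervals cover counting error only, and loops that share an anchor are not independent. The share ran in the order of the lists' lengths: the knockout list held 21829 loops of any size, the progesterone list 11752, vehicle replicate 2 held 16387 and vehicle replicate 3 held 9385. The depth of the libraries is unknown, so genotype, treatment and depth cannot be told apart in these counts. Gene ends also lay in more anchors of the longer lists: 22.3% of the progesterone anchors and 31.3% of the knockout anchors, against 24.6% and 19.2% in vehicle replicates 2 and 3.

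**Figure D1:**
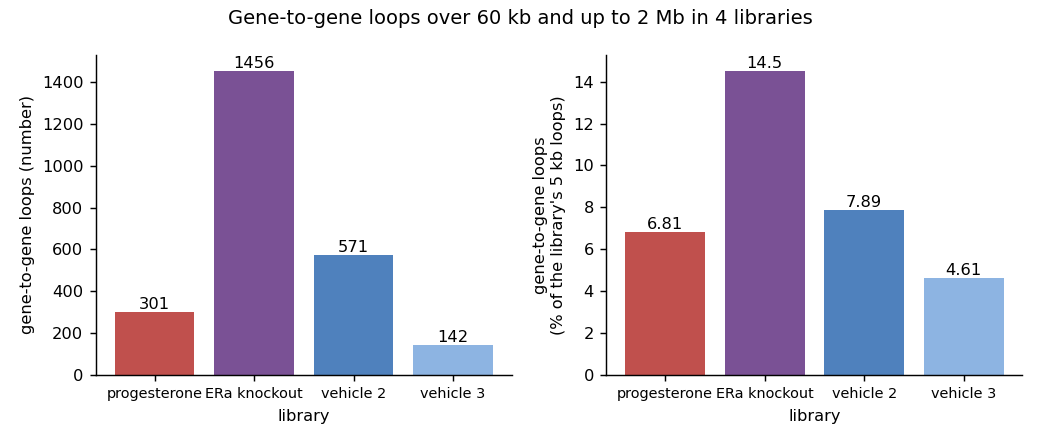
The left panel shows the number of gene-to-gene loops in each library (bars), and the right panel their percent of all loops with 5 kb anchors over 60 kb and up to 2 Mb. The knockout bar is the tallest in both panels (1456 loops, 14.5%) and that of vehicle replicate 3 the shortest (142 loops, 4.61%).

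Most of these loops named a single pair. A loop joined exactly 1 pair of genes in 61.5% of cases after progesterone and in 58.3% in the knockout, against 63.7% and 58.5% in vehicle replicates 2 and 3. The most pairs that a single loop could name was 14 in the progesterone, knockout and vehicle replicate 2 libraries, and 6 in vehicle replicate 3. Where several gene ends share an anchor, the 5 kb resolution cannot say which of them the loop reaches. The libraries yielded 485 pairs after progesterone, 2332 in the knockout, 899 in vehicle replicate 2 and 236 in vehicle replicate 3.

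In each of the 4 libraries a smaller share of the gene-to-gene loops than of the remaining 5 kb loops of the same length range had a counterpart in another library. A loop was counted as matched when a loop of another list, of any anchor size, reached both of its anchors with 10 kb of tolerance on either side. In the progesterone library 94.7% of gene-to-gene loops were matched in at least 1 other library, against 97.3% of other loops. In the knockout the values were 54.4% for gene-to-gene loops and 77.0% for other loops. They were 88.3% and 93.3% in vehicle replicate 2, and 95.1% and 98.3% in vehicle replicate 3. The difference had the same sign in 4 of 4 libraries and averaged -8.38 percentage points (SD 9.55, n = 4 libraries, range -22.6 to -2.65). The two-sided exact sign-flip permutation test gave p = 0.125, the smallest value that 4 libraries allow, so the test could not reach significance whatever the data. The libraries are not replicates of 1 group, and each match uses the lists of the others.

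The same matches were also read in the other direction, with loops sorted by how many libraries held them. The values restate the result above and are not a separate observation. In the knockout, 25.2% of the loops with no match elsewhere joined genes to genes, against 6.05% of the loops held by all 4 libraries. In the progesterone library the shares were 12.7% and 5.16%, in vehicle replicate 2 they were 13.1% and 4.90%, and in vehicle replicate 3 they were 12.1% and 4.06%. In each library the loops common to all lists had the lower share. In the knockout the gap was present in each class of length. Among knockout loops over 60 and up to 100 kb, 50.4% of gene-to-gene loops and 64.1% of other loops had a match. Among knockout loops over 500 kb the values were 63.9% and 85.8%. In 4 other classes gene-to-gene loops had the higher share. In the progesterone library these were the shortest class, with 94.9% of gene-to-gene loops and 94.2% of other loops matched, and the class over 500 kb, with 100% and 98.8%. In vehicle replicate 3 they were the class over 200 kb, with 100% and 98.6%, and that over 500 kb, with 100% and 98.4%.

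In each of the 4 libraries the median gene-to-gene loop was shorter than the median of the other loops. Their median length was 110 kb after progesterone, 125 kb in the knockout, 120 kb in vehicle replicate 2 and 105 kb in vehicle replicate 3. The other 5 kb loops had medians of 175, 165, 185 and 180 kb in the same libraries. The difference averaged -61.25 kb (SD 14.9, n = 4 libraries, range -75 to -40) and was negative in 4 of 4, with an exact sign-flip p of 0.125, again the smallest possible. Loops of at most 100 kb were 45.2% of the gene-to-gene loops after progesterone, 38.2% in the knockout, 39.8% in vehicle replicate 2 and 46.5% in vehicle replicate 3. Among other loops they were 23.7, 26.8, 22.7 and 22.5%.

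The share of loops that joined genes was lower in each longer class of length, in each library. After progesterone it was 12.2% in the class up to 100 kb, 7.30% up to 200 kb, 3.62% up to 500 kb and 1.98% up to 2000 kb. In the knockout the 4 classes held 19.5, 15, 11.5 and 7.90%. In vehicle replicate 2 they held 13.1, 8.35, 5.48 and 3.0%, and in vehicle replicate 3 they held 9.09, 4.87, 2.22 and 0.955%. The knockout was highest in each class and vehicle replicate 3 lowest. Gene-to-gene loops over 500 kb numbered 10 after progesterone, 83 in the knockout, 28 in vehicle replicate 2 and 3 in vehicle replicate 3.

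**Figure D2:**
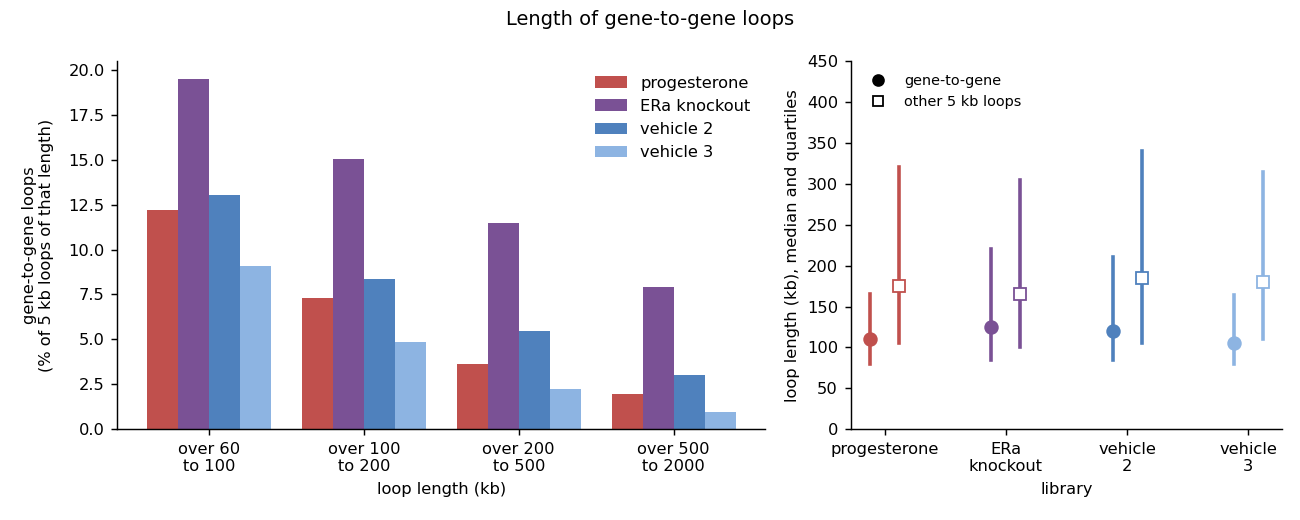
The left panel shows gene-to-gene loops as a percent of all 5 kb loops in 4 classes of length (kb) for each library, and the right panel the median (symbol) and quartiles (line) of loop length in kb. The percent falls with length in each library, and the filled circles of gene-to-gene loops (105 to 125 kb) lie below the open squares of other 5 kb loops (165 to 185 kb).

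Where strand was known, most of these loops had a gene start in both anchors, and such an anchor could hold gene ends too. Among loops whose genes all had a strand in the RefSeq promoter table, a start met a start in 79.0% of 200 progesterone loops and 90.0% of 970 knockout loops. The share was 80.0% of 360 loops in vehicle replicate 2 and 72.7% of 99 loops in vehicle replicate 3. An end met an end in 4.50% after progesterone and 1.75% in the knockout, against 4.72% and 8.08% in vehicle replicates 2 and 3. Counted over pairs, start-to-start contacts were a smaller share of the pairs that recurred more. They were 80.5% of the 1402 pairs of a single library, 77.5% of 333 pairs in 2 libraries, 70.4% of 162 pairs in 3 libraries and 48.3% of the 58 pairs in all 4 libraries. The direction of transcription showed no such order: tandem genes made up 50% of the pairs of 1 library and 50% of those of all 4, of the pairs with both strands known.

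Of the 2760 gene pairs, 793 (28.7%) were found in 2 or more libraries and 1967 in a single library. The recurring pairs split into 479 in 2 libraries, 229 in 3 and 85 in all 4, and they held 1139 genes. Of the pairs of a single library, 1581 were the knockout's, 96 the progesterone library's, 232 those of vehicle replicate 2 and 58 those of vehicle replicate 3. A pair could be missing from a list because a loop there was drawn at a coarser anchor or shifted by a few kb. A matched loop of some size existed elsewhere for 38.4% of the single-library pairs. This was so for 74.0% of the progesterone pairs and 31.6% of the knockout pairs, against 59.1% and 82.8% of those of vehicle replicates 2 and 3. Recurring pairs were the shorter ones: the median length was 125 kb in 1 library, 120 kb in 2, 105 kb in 3 and 90 kb in all 4. The typical pair skipped other genes, with a median of 2 genes between the anchors and up to 82. In 25.8% of pairs no gene lay between.

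**Figure D3:**
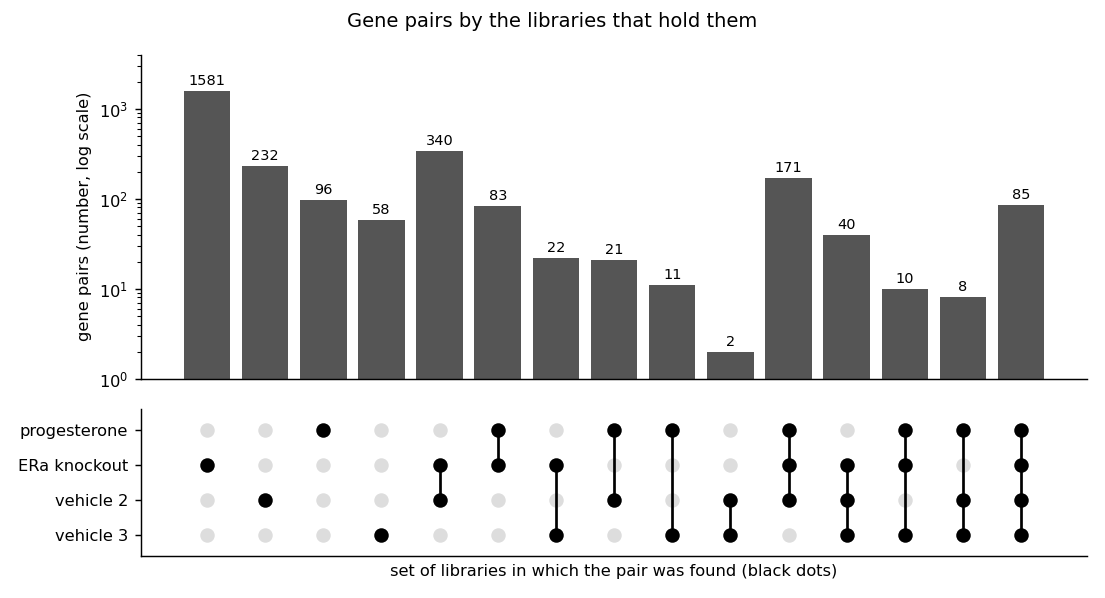
Bars show the number of gene pairs (log scale) for each set of libraries, and the black dots below each bar name the libraries of that set. The knockout alone holds 1581 pairs, the knockout with vehicle replicate 2 holds 340, and 85 pairs are common to all 4 libraries.

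In all 4 libraries 85 pairs were found. Pds5a met the start of Ube2k and that of Smim14, a small membrane protein gene that shares the anchor, over 160 kb in each library. The longest was Capn13 and Xdh, a calpain and xanthine dehydrogenase, over 575 kb between chr17:73305001-73310000 and chr17:73880001-73885000. Next came Dnajb14, a heat shock co-chaperone, with Mttp, the microsomal triglyceride transfer protein, and with Trmt10a, a tRNA methyltransferase, over 225 to 275 kb. The histone gene H2az1 tied with it, as it met Mttp and Trmt10a over 275 kb between the same anchors. The 275 kb loop can therefore not be assigned to Dnajb14 or H2az1. Among the shortest, where several pairs tied at 65 kb, were Cox4i2 and Bcl2l1, the anti-apoptotic BCL-X gene, over 65 kb, and Ajuba with Acin1 and Cdh24 over 65 to 75 kb. These pairs were chosen for having a loop in each library, so their presence after progesterone, in the knockout and in vehicle was fixed by that choice.

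Several of these constant pairs, chosen for naming with their values in view, held a gene of basic cell machinery. Aco1, the cytosolic aconitase that senses iron, met the complex I subunit gene Ndufb6 over 135 kb. Cs, citrate synthase, met the chromatin remodelling subunit gene Smarcc2 over 120 kb. Polr2a, the largest subunit of RNA polymerase II, met the SUMO protease gene Senp3 over 75 kb. The anchors of that loop held 5 gene ends, Tnfsf13 and Slc35g3 among them, so it cannot be assigned to Polr2a and Senp3. Map2k1, the kinase MEK1, met Rpl4 and Snapc5 over 75 kb. Ankrd17 met Cox18, which inserts cytochrome oxidase into the membrane, over 145 kb. Snrpe, a spliceosome protein gene, met Etnk2 and Sox13 over 230 kb.

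Other constant pairs joined genes of tissue structure or of restricted use. Fmod and Prelp, which encode leucine-rich proteoglycans of the matrix, were joined over 135 kb, end to end. Dag1, dystroglycan, and Bsn, a presynaptic protein gene, were joined over 105 kb, also end to end. Grin1, a subunit of the NMDA receptor used here as a neuron marker, met Tor4a at 95 to 100 kb, again between gene ends. An end of Lrrc26 shares the Grin1 anchor, so the contact cannot be assigned to Grin1 or Lrrc26. Gdf5, a growth factor of the BMP family, met Uqcc1 over 100 kb. Apmap and the nucleotidase gene Entpd6 were joined over 140 kb, Dcaf8 and Igsf8 over 165 kb, and Zswim6 and Smim15 over 150 kb. Snapin, a protein of vesicle docking, met S100a7a over 160 kb. A loop in this list says that the DNA met, and nothing of whether a gene was transcribed.

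Pairs within a gene family were few. In 63 pairs both symbols shared a stem, 39 of them Zfp genes, and 21 of the 63 were found in 2 or more libraries. Those of all 4 libraries were Fads1 and Fads2, the fatty acid desaturases, over 80 to 95 kb, Gimap3 and Gimap8, Parp9 and Parp14, of the ADP-ribosyltransferase family, over 65 kb, and Zfp868 and Zfp869 over 90 kb. Zfp84 met Zfp27 and Zfp383 over 140 kb in the progesterone, knockout and vehicle replicate 2 libraries. Irx3 and Irx5, homeobox genes of the same cluster, were joined over 555 kb in the knockout and vehicle replicate 2, and a matched loop lay in the other libraries too. The chemokine genes Ccl7 and Ccl1 were joined over 130 kb in all libraries but vehicle replicate 3, where a matched loop existed.

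The longest pairs were histone genes. On chromosome 13, 24 replication-dependent histone genes formed 52 pairs, the largest group of linked genes, and 36 of these pairs spanned over 1 Mb. They came from 6 distinct loops of 1640 to 1980 kb, of which 5 started at chr13:22040001-22045000, the anchor of H2ac11, H2bc11 and H4c9. Progesterone held the loops of 1655 and 1710 kb from that anchor, reaching H1f6 with H4c3 and H2ac4 with H3c2. The knockout held those of 1640, 1695 and 1720 kb, reaching H2ac6 with H2bc4, H1f2, and H1f1 with H3c1 and H4c1. Vehicle replicate 2 held those of 1640 and 1720 kb and a loop of 1980 kb between other histone genes, and vehicle replicate 3 held none at 5 kb. The 1710 and 1720 kb loops had a match in each of the 4 libraries. Of the 52 pairs, 15 recurred in 2 or more libraries. Histone genes are near-identical copies, and how reads that fit several copies were placed by the authors is unknown here, so these loops are uncertain.

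H2ac11, H2bc11 and H4c9 were therefore the genes with the most partners, 10 each. Cfap126, a cilia gene on chromosome 1, followed with 9 partners over 110 to 390 kb, among them Usf1 and Apoa2, and 2 of the 9 were found in 2 or more libraries. Zfp84 had 7 partners, 3 of them in 2 or more libraries. On chromosome 17, Mrps10, of the mitochondrial ribosome, had 7 partners, 3 of them in 2 or more libraries. Bysl, of ribosome assembly, had 6, each of the 6 found in 2 or more libraries. These partners were not separate contacts. Frs3, Gm20517, Prickle4, Tomm6 and Usp49 met Bysl through the same 75 kb loop, whose anchors held 8 gene ends. Mrps10 reached its partners through loops of 245 and 320 kb. Most genes had few: 1888 of the 3327 had 1 partner and 56 had 5 or more. The pairs fell into 1012 separate groups of linked genes, of which 408 were a single pair.

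No pair held Esr1, Pgr, Igf1, Greb1 or Ihh, the receptors and hormone targets that the study's subject centres on. Of 39 early estrogen genes, 10 were in a pair, which is 25.6% against 15.4% of all protein-coding genes. All 10 were in the knockout list, 3 in the progesterone list, 6 in vehicle replicate 2 and 1 in vehicle replicate 3. For all genes these counts were 2881 in the knockout and 721 after progesterone, against 1301 and 357 in the vehicle libraries. Jun met Fggy over 505 kb, and Fosl2 met Babam2 and Rbks over 440 kb and Slc4a1ap over 575 kb, each in the progesterone, knockout and vehicle replicate 2 libraries. These Fosl2 pairs had a matched loop in vehicle replicate 3 too, and the Jun pair had none there. Fos met Tmed10 over 100 kb, and Dusp6, a phosphatase that restrains ERK, met Poc1b over 155 kb, both in the knockout and vehicle replicate 2. The Fos pair had a matched loop after progesterone, and the Dusp6 pair had none in the other libraries. Klf6, a zinc finger factor, met Pfkp over 785 kb and Pitrm1 over 685 kb in the knockout alone, the Pitrm1 pair with a matched loop after progesterone. Vegfa, the vascular growth factor, met Mrps18a over 80 kb in the knockout, with no matched loop elsewhere. It met 1600014C23Rik over 300 kb in vehicle replicate 2, with a matched loop in each other library. Jund met Gdf15 over 70 to 75 kb in the progesterone, knockout and vehicle replicate 3 libraries, and a matched loop lay in vehicle replicate 2.

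The coregulators of steroid receptors were the list with the largest share in pairs, 10 of 23 genes (43.5%). All 10 were in the knockout list, 3 in the progesterone list, 4 in vehicle replicate 2 and 1 in vehicle replicate 3. Ep300, an acetyltransferase that coactivates nuclear receptors, met Rbx1, a ubiquitin ligase subunit, over 120 kb in the knockout and both vehicle libraries, and a matched loop lay in the progesterone list. Nrip1, a corepressor induced by estrogen, met Hspa13 over 605 kb in all libraries but vehicle replicate 3, which also had a matched loop. Ncoa1, the coactivator SRC-1, met Cenpo and Ptrhd1 over 245 kb in the progesterone and knockout libraries and had no matched loop in either vehicle list. Ncoa2 met Tram1 over 215 kb in the knockout and vehicle replicate 2, with a matched loop after progesterone. Crebbp met Trap1 over 135 kb in the knockout list, with a matched loop in the progesterone and vehicle replicate 2 lists. Kdm1a met Rpl11 over 550 kb in the knockout list, with a matched loop in both vehicle lists.

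Progesterone response genes were nearly absent: 2 of 35 (5.71%) were in a pair, Calca and Zfp143, both in the knockout alone. Calca, which encodes calcitonin, met the proteasome gene Psma1 over 360 kb. Of 33 genes of reproductive tract patterning, 5 were in a pair (15.2%, against 15.4% of all protein-coding genes). Hoxd9 and Hoxd10 were among them through the same loop. Emx2, a homeobox gene of the Müllerian duct, met Fam204a over 770 kb in the knockout alone. From the same anchor Emx2 met Rab11fip2 over 485 kb in the knockout list, with a matched loop in each wild-type library. Osr2 met Vps13b over 75 kb in all libraries but vehicle replicate 3. Of the markers of cell types, to be read beside the same 15.4%, 4 of 13 smooth muscle genes were in a pair, 2 of 14 stroma genes, 1 of 16 epithelium genes, 1 of 11 endothelium genes, 2 of 21 neuron genes, 0 of 13 immune genes and 0 of 20 hepatocyte genes. Elf3, an epithelial factor, and Lmod1, of smooth muscle, formed the only pair with both genes on the lists. They were joined over 110 kb in the knockout and vehicle replicate 2, with a matched loop after progesterone.

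Among classes formed from gene symbols, the highest shares in pairs were those of proteasome, translation and ribosome genes. A class goes by symbol alone, so that a few members do other things (Rps6ka4, a kinase, counts among the ribosomal proteins). A pair held 17 of 51 proteasome genes (33.3%), 23 of 70 translation factor genes (32.9%), 32 of 99 ribosomal protein genes (32.3%) and 25 of 78 genes of the mitochondrial ribosome (32.1%). The shares were 28.5% of splicing and RNA-binding genes, 27.6% of RNA polymerase and Mediator genes, 26.7% of chromatin enzymes, 26.7% of respiratory chain genes and 22.9% of aminoacyl-tRNA synthetases. Zinc finger genes stood at 21.3% and kinases and phosphatases at 21.0%. At the low end were homeobox genes at 11.3%, collagen and matrix genes at 8.99%, forkhead, SOX, GATA and T-box genes at 7.23%, and ion channels at 6.39%. WNT, FZD and hedgehog genes stood at 5.36%, cadherins at 2.17%, and olfactory and vomeronasal receptors at 0.135% (2 of 1480). These shares are descriptions beside the 15.4% of all genes, and genes of a class can share an anchor.

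Genes could also lie at loops without being paired. The 5 kb loops with a gene end in a single anchor touched 2255 genes that were in no pair, 10.4% of all protein-coding genes. Progesterone response genes were among them in 21 of 35 cases (60%), with Ihh, Bmp2, Foxo1, Gata2, Hand2, Nr2f2 and Ptch1 in that number. Early estrogen genes were there in 19 of 39 cases (48.7%), Pgr and Igf1 included, and patterning genes in 16 of 33 (48.5%). The share was 28.9% of forkhead, SOX, GATA and T-box genes, 26.8% of WNT, FZD and hedgehog genes and 23.8% of collagen and matrix genes. Among ribosomal protein genes it was 8.08%, among translation factor genes 7.14% and among respiratory chain genes 6.67%. In the progesterone response list 21 genes were thus at such loops and 2 in pairs, and among ribosomal protein genes 8 were at such loops and 32 in pairs.

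**Figure D4:**
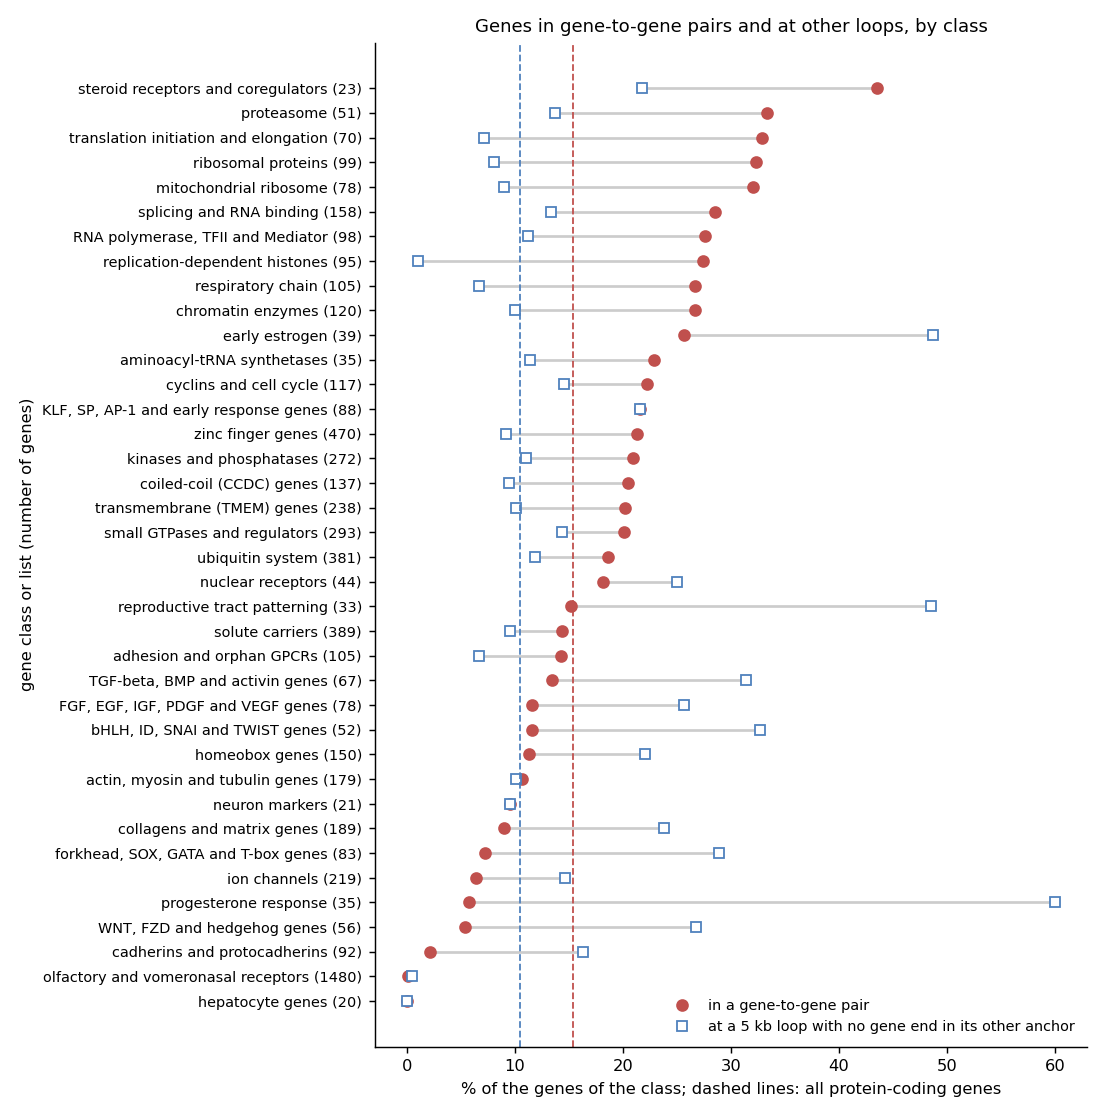
For each class or list of at least 20 genes, the filled circle gives the percent of its genes in a gene-to-gene pair and the open square the percent at 5 kb loops with a gene end in a single anchor and in no pair. Dashed lines mark all protein-coding genes (15.4% and 10.4%); translation, ribosomal and proteasome genes have circles above 30%, and the progesterone response list has its circle at 5.71% and its square at 60%.

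The promoters of paired genes were rich in CpG. A CpG ratio of at least 0.6 was found in 76.6% of the 2672 paired genes with a RefSeq promoter, against 48.9% of the 17274 protein-coding genes with one. Genes at 5 kb loops but in no pair stood between, at 65.8%. Among genes of the pairs in all 4 libraries the share was 61.5% of 104, and among genes paired in the knockout alone it was 79.1% of 1352. The median GC content was 61.3% in paired genes and 56.3% in all genes. The GC box GGGCGG was in 66.0% of paired promoters and 46.9% of all promoters, the ETS motif CCGGAAG in 20% and 12%, and the NRF1 motif GCGCATGC in 5.61% and 3.64%. The YY1 motif AAGATGGC was in 5.24% and 3.25%, the ZNF143 motif ACTACAA in 4.68% and 3.88%, and AGGGGGC, a core of the CTCF motif, in 17.3% and 12.8%. Both strands were searched, and the CTCF core and the GC box can overlap. In the genes of all 4 libraries the ETS motif stood at 7.69% and the CTCF core at 19.2%. The median length was 22.7 kb for paired genes and 17.3 kb for all protein-coding genes.

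Progesterone was set against the vehicle libraries by asking which loops of the one had no match in the other. Of the 301 gene-to-gene loops after progesterone, 44 were matched in neither vehicle library, 14.6% (95% Wilson interval 11.1 to 19.1) against 5.86% of all 5 kb loops of this length range. In the other direction, 259 gene-to-gene loops of vehicle replicate 2 had a match, of any anchor size, in vehicle replicate 3. Of these, 44 were not matched after progesterone, 17% (12.9 to 22.0) against 9.51% of all such loops. Shares of the same form as the 17% were taken between the vehicle libraries and lay on both sides of it. They cannot be set beside the 14.6%, which counts loops missing from both vehicle lists. Of the progesterone library's gene-to-gene loops with a match in vehicle replicate 2, 26.9% had none in vehicle replicate 3, against 13.3% of all such loops. Of its gene-to-gene loops with a match in vehicle replicate 3, 7.81% had none in vehicle replicate 2, against 3.36% of all such loops. With 1 progesterone library there is no replicate check and no test.

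In pairs of genes, 65 of the 485 progesterone pairs, from 44 loops, had no matched loop in either vehicle library. Among them were Ncoa1 with Cenpo and Ptrhd1, Commd3 with the lipid kinase gene Pip4k2a over 325 kb, Ppdpf with Zfp512b over 405 kb, and Id3, an inhibitor of bHLH factors, with the splicing factor gene Srsf10 over 285 kb. The Ncoa1 and Pip4k2a pairs were found in the knockout as well, and Id3 with Srsf10 had no matched loop in any other library. Of the 135 pairs of both vehicle libraries, 22, from 10 loops, had no matched loop after progesterone. They included Adgrf1 and Adgrf5, adhesion receptor genes, over 130 kb, Kansl3 and Cnnm4 over 105 kb, Ubtf, a factor of ribosomal RNA transcription, and Slc25a39 over 85 kb, and Hibadh and Tax1bp1 over 70 kb. All 4 of these were present in the knockout.

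The knockout held many pairs that neither vehicle library held. It matched nearly all gene-to-gene loops of vehicle replicate 2 that had a match in vehicle replicate 3. Of the knockout's 1456 gene-to-gene loops, 723 had no match in either vehicle library, 49.7% (47.1 to 52.2) against 29.5% of all 5 kb loops. Of the 259 gene-to-gene loops of vehicle replicate 2 with a match in vehicle replicate 3, 13 had no match in the knockout. This was 5.02% (2.96 to 8.40) against 6.21% of all such loops, a share near the background. Of the 135 pairs of both vehicle libraries, 0 lacked a matched loop in the knockout, although 10 were not named as the same pair there. Of the 2332 knockout pairs, 1171 had no matched loop in either vehicle library. Shares of the same form as the 5.02% were taken between the vehicle libraries, and both lay above it. They cannot be set beside the 49.7%, which counts loops missing from both vehicle lists. Of the knockout's gene-to-gene loops with a match in vehicle replicate 2, 53.2% had none in vehicle replicate 3, against 31.6% of all such loops. Of its gene-to-gene loops with a match in vehicle replicate 3, 16% had none in vehicle replicate 2, against 7.06% of all such loops. The part of list length and of genotype in these counts was not tested, with 1 knockout library.

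**Figure D5:**
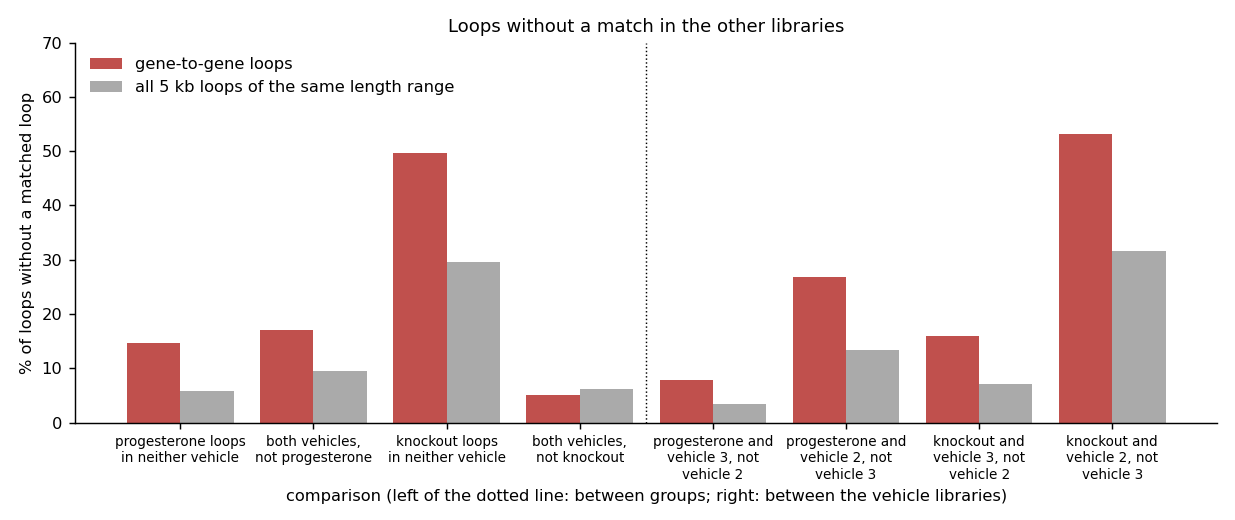
Bars give the percent of loops without a match for gene-to-gene loops (red) and for all 5 kb loops over 60 kb and up to 2 Mb (grey), between groups on the left of the dotted line and between the vehicle libraries on the right. Bars labelled both vehicles count loops of vehicle replicate 2 that had a match in vehicle replicate 3. Gene-to-gene loops lie above all loops in 7 of the 8 comparisons, and below in such loops that the knockout lacked (5.02% and 6.21%).

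The naming rule puts pairs with listed genes first among the knockout pairs without a match in either vehicle library. Klf6 and Pfkp over 785 kb, Emx2 and Fam204a over 770 kb, and Calca and Psma1 over 360 kb had no matched loop in any wild-type library. Klf6 and Pitrm1 over 685 kb, and Vim, the intermediate filament gene of stroma, with Rsu1 over 300 kb, had a matched loop after progesterone. Other pairs named in the knockout alone had loops everywhere. Osr2 and Rgs22 over 845 kb and Col3a1, a fibrillar collagen gene, with Gulp1 over 760 kb had a matched loop in each wild-type library. So did Emx2 and Rab11fip2 over 485 kb. Of the pairs in the 3 wild-type libraries and not the knockout there were 8, and Bbs12 with Fgf2 over 90 kb, Znrf2 with Ggct over 175 kb and Kcnc4 with A630076J17Rik over 230 kb all had a matched loop in the knockout.

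Pairs of a single wild-type library followed the same course. Matn1 and the phosphatase gene Ptpru, over 880 kb, were paired in the progesterone library, with a matched loop in all the others. Fosl2 and Mrpl33 over 525 kb were paired in vehicle replicate 2, with a match after progesterone. Phf20l1 and Zfat over 1680 kb were paired in vehicle replicate 2 with no match elsewhere. Cdh5, the endothelial cadherin, and Bean1 over 75 kb, and Saraf with Dusp4 over 645 kb, were paired in vehicle replicate 3 and had a matched loop in each other library.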

How the data were processed

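Each library's loop list was deposited as positions (chromosome and limits of each anchor), with no header, contact count or score. Anchors were 5, 10 or 25 kb wide. Per the submitters' processing notes the build was mm10 and Juicer 1.5.6 was used, and neither the loop caller, its thresholds nor the sequencing depth is given in the sources used here. The unit of comparison was the library. Anchors were set against the starts and ends of protein-coding genes in the RefSeq table for GRCm38.p6, the assembly behind mm10, and genes were matched by symbol.

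A loop matched a loop of another list when that loop, of any anchor size, overlapped both anchors after 10 kb was added on each side. A pair was found in a library when a gene-to-gene loop there named both genes. Shares and medians of gene-to-gene loops were set against other 5 kb loops in each library and tested with the two-sided exact sign-flip permutation test over 4 libraries. No test compares progesterone or knockout with vehicle, because each has 1 library. Strand and promoter sequence came from RefSeq's promoter table, which held 80.3% of the paired genes. The first promoter listed for a gene was used for shares. Lengths run between anchor starts. Pairs were named by a rule: pairs in all 4 libraries or of 1 set of libraries, ordered by genes on the lists, fewer gene ends and length, pairs of genes with most partners, pairs of 1 family, and the longest and shortest. The further pairs of all 4 libraries and of listed genes were picked with their values in view. The members and gene lists were chosen with earlier results of these data known. Gene placement and loop matching were tested on simulated data. Analyses used Python 3.11.15, numpy 2.4.6, pandas 2.3.3 and scipy 1.17.1. One pair that the naming rule selects is not reported here.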

Additional observations from a re-analysis of the deposited data

How the results depend on the processing

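No paired analysis was possible because the groups share a single replicate number and each of progesterone and knockout has 1 library. The counts depend on how a gene is placed. The 2470 loops and 2760 pairs, 793 of them in 2 or more libraries, became 4830, 6039 and 2316 with gene ends within 5 kb of the anchor, and 7051, 5001 and 2053 with any part of the gene body. They became 1513, 1554 and 396 with gene starts only, 4490, 5079 and 1532 with 5 and 10 kb anchors, 4077, 4384 and 1406 for loops of any length, and 1462, 1636 and 426 for loops over 100 kb and up to 1 Mb. The order of the libraries by share of gene-to-gene loops was the same under these 6 settings. Pairs in 2 or more libraries numbered 1549 when a matched loop counted, 430 without vehicle replicate 2 and 758 without vehicle replicate 3.

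With all 4 libraries or without a vehicle replicate, the difference in matched share ranged between -10.8 points without vehicle replicate 2 and -4.97 points with 0 kb added, where the exact permutation p was 0.375 (0.125 to 0.375 over the alternatives), and the difference in length between -61.25 and -33.75 kb. Both kept their sign without the knockout (-11.2 points and -68.3 kb), an alternative chosen after seeing the data.

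Pairs of progesterone in neither vehicle library, 65, became 153 with 0 kb added, 109 against 5 kb loops only and 179 as the same gene pair, and 94 to 178 when a vehicle library was left out. Of the 135 pairs of both vehicle libraries, 22 (16.3%) had no match after progesterone, which became 40 with 0 kb added and 42 as the same gene pair. Without vehicle replicate 2 they were 48 of 236 pairs (20.3%), and without vehicle replicate 3 they were 385 of 899 (42.8%). Pairs of both vehicle libraries without a match in the knockout, 0 of 135, became 13 with 0 kb added, 1 against 5 kb loops only and 10 as the same gene pair. They were 12 of 236 (5.08%) without vehicle replicate 2 and 133 of 899 (14.8%) without vehicle replicate 3. Knockout pairs in neither vehicle library, 1171, ranged between 1029 and 1742. With no contact counts, a loop absent from a list may be a loop not called at that library's depth.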

Other observations

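Beyond the histone genes, 20 pairs spanned over 1 Mb, and 14 of them were named in the knockout alone. Over all lengths, 1581 of the 2760 pairs were named in the knockout alone. Most of the 14 had a matched loop in a wild-type library, and some came from the same loop. Only the Etv1 and Opn3 loops below had no such match. Hoxd9, of the Hoxd cluster that patterns the reproductive tract, met Nfe2l2, a factor of the oxidative stress response, over 1005 kb in the knockout. An end of Hoxd10 shares the anchor, so the loop cannot be assigned to Hoxd9 or Hoxd10. A matched loop lay in the progesterone and vehicle replicate 2 libraries. Etv1, an ETS factor, met Arl4a over 1255 kb, and Opn3 met Cep170 over 1120 kb, both with no match in a wild-type library. Nrp2, a receptor of semaphorins and VEGF, met Pard3b over 1065 kb in the knockout with a match after progesterone. Tpr, of the nuclear pore, met Swt1 and Trmt1l over 1035 kb in the knockout and vehicle replicate 2. St3gal1 and Zfat were joined over 1080 kb in the same 2 libraries. The Tpr and St3gal1 pairs had a matched loop in vehicle replicate 3. None of these pairs was found at 5 kb in the progesterone list or in vehicle replicate 3.

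Larger groups of linked genes were found besides the histone genes. On chromosome 6, 13 genes between 124570430 and 125049265 were linked, among them Phb2, Ing4, Emg1 and Lag3. On chromosome 5, a group of 12 held Mcm7, of the replicative helicase, with Gnb2 and Mepce. On chromosome 11, a group of 11 held Polr2a, Senp3, Kctd11 and Fgf11. On chromosome 2, a group of 10 held the ribosomal protein gene Rps21, the proteasome gene Psma7 and the TFIID gene Taf4.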
